A study of Mus musculus with 2 samples.

Results

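Igf2, H19 and Ins2 are 3 neighbouring genes on the minus strand of distal mouse chromosome 7, and they were described here in RNA-Seq libraries from whole brains of F1 embryos at E17.5, late in gestation. They were taken by name and position from the deposited catalog of known imprinted genes, where they are 3 of 128 entries and 3 of the 4 entries in this region, the fourth being Igf2as. The BxC library came from an embryo with a C57BL/6J mother and a CastEi/J father, and the CxB library from an embryo of the reciprocal cross with a CastEi/J mother and a C57BL/6J father. C57BL/6J is the common laboratory strain behind the reference genome, and CastEi/J (CAST/EiJ in the study) is an inbred strain derived from wild mice. Each library came from 1 brain with no pooling and no treatment. The study names a male for CxB and does not name the BxC brain that was deposited, so cross, embryo, sex and library cannot be told apart. The BxC library held 128944754 reads of 36 bases and the CxB library 109719746. Both totals are sums of the deposited count of each line, taken from its values to be the number of identical reads. They are above the average yield per library that the study states, and the reason is not given in the sources used here. Every read count below rests on this meaning of the deposited counts, which was not tested. Each cross had 1 library, so replicate error is unknown, no test was made, and every interval below is a 95% interval for counting error only. These intervals take each read as an independent draw.

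H19 makes a spliced, polyadenylated RNA that codes for no protein and is expressed from the maternal allele. Igf2 codes for insulin-like growth factor 2, a secreted growth factor of the fetus, and Ins2 codes for one of the mouse insulins; both are listed as paternally expressed. H19 and Igf2 share enhancers, and the imprint control region upstream of H19 binds the insulator protein CTCF on the unmethylated maternal allele. In most fetal tissues only the paternal Igf2 allele is active, but choroid plexus and leptomeninges of the brain are known for expressing both. Igf2 has several promoters, P0 to P3, each with its own noncoding leader exon spliced to the same coding exons. The alignments hold no bases, so nothing here separates maternal from paternal transcripts.

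By the GENCODE vM1 annotation on NCBIM37 (mm9), H19 spanned chr7:149761434-149764048, Igf2 chr7:149836673-149852721 and Ins2 chr7:149864561-149885415. A gap of 72.62 kb lay between H19 and Igf2, and 11.84 kb between Igf2 and Ins2. The imprint control region lies just upstream of H19. The stretch from 2 to 4 kb upstream of the H19 start had 7 reads in BxC and 0 in CxB, which allows up to 3 reads.

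H19 and Igf2 were abundant in both libraries and Ins2 was near the limit of detection. Over the annotated exons H19 had the higher level per length, and over the exons of the catalog entries Igf2 had. H19 had 57710 reads in BxC and 36584 in CxB, which is 188.7 and 140.6 reads per kb of exon scaled to library size (RPKM). Igf2 had 88258 and 64648 reads, or 124.6 and 107.3 RPKM. Ins2 had 6 and 26 reads, or 0.05745 and 0.2926 RPKM. The H19 level was 1.514 times the Igf2 level in BxC and 1.31 times in CxB, and in each library the counting intervals of these levels did not overlap. The catalog entry of H19 lacks most of exon 1, and over catalog exons the order turned, with 95.02 and 81.91 RPKM for H19 and 144.1 and 124.0 for Igf2. Only 0.7% of the 15427 genes with at least 100 reads in each library had a higher RPKM than H19 in BxC, and 1% in CxB; for Igf2 these shares were 1.28% and 1.61%.

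**Figure D1:**
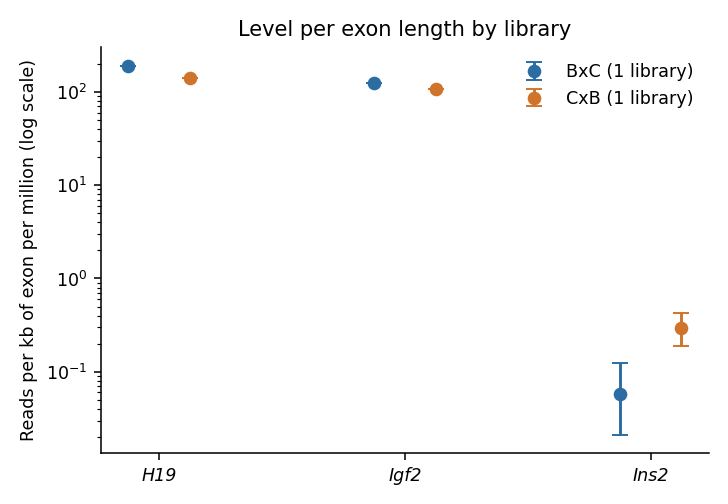
Level of H19, Igf2 and Ins2 in each library in RPKM on a log axis, with 95% Poisson counting intervals. H19 and Igf2 lie above 100 RPKM in both libraries, and Ins2 lies below 0.5 RPKM in both.

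Both abundant genes had lower RPM, the reads scaled to a fixed library total without regard to length, in CxB. H19 stood at 447.6 RPM in BxC and 333.4 in CxB, a log2 ratio of CxB over BxC of -0.42 (-0.44 to -0.41). Igf2 stood at 684.5 and 589.2 RPM, a log2 ratio of -0.22 (-0.23 to -0.20). Neither reached 1.5-fold, which 0.622% of the 15427 genes did in the direction of lower in CxB and 0.473% in the direction of higher. The central 90% of those genes lay between -0.29 and 0.28, so that the H19 ratio was outside this range and the Igf2 ratio inside it. Over the catalog entry the H19 ratio, -0.21, was inside the range too. With each line of the alignments counted once, the central 90% of 14046 genes was narrower, -0.21 to 0.18, and H19, at -0.28, was outside it and Igf2, at -0.14, inside. By reads, a lower ratio than that of H19 was held by 1.94% of the 15427 genes, and by 0.422% of the 1897 genes with at least 10000 reads in each library. For Igf2 the shares were 9.26% and 2.79%.

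The 3 genes nearest to each member in level, measured over both libraries, give a scale for its level. Because both libraries entered the choice, a like ratio between the libraries follows from it. Around H19 they were Anapc13, a subunit of the anaphase-promoting complex, with 187.4 and 135.3 RPKM, Hbb-b1, an adult beta globin, with 187.4 and 152.6, and Ndn, the imprinted gene of necdin, with 206.0 and 144.7. Around Igf2 they were Atpif1, an inhibitor of the mitochondrial ATP synthase, Pfdn2, a prefoldin subunit, and Gramd1a, with 117.8 to 130.4 RPKM in BxC and 106.9 to 110.2 in CxB. Around Ins2 they were SNORA17, Gm9429 and AC117806.1, with at most 6 reads in BxC and 28 in CxB. With 2 libraries, no likeness of pattern across samples could be measured.

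The H19 ratio was not even along the gene. Exon 1, the longest exon, held 47380 reads in BxC and 29401 in CxB, a log2 ratio of -0.46 (-0.48 to -0.43). Exon 2 had 2365 and 1836 reads and a ratio of -0.13 (-0.22 to -0.04), exon 3 -0.40, exon 4 -0.41 and exon 5 -0.28. Within exon 1 the spread was wider still. Its most 5′ part, bases 1 to 329, had 36470 and 21176 reads, a log2 ratio of -0.55 (-0.58 to -0.53). Bases 330 to 658 had 7383 and 4339 reads, a ratio of -0.53. Bases 659 to 987 had 2224 and 1919 reads, a ratio of 0.02 (-0.07 to 0.11), and bases 988 to 1315 had 4388 and 3693 reads, a ratio of -0.02 (-0.08 to 0.05). Within exon 1 the lower count in CxB thus lay in its 5′ parts, and the intervals of its 3′ parts included 0. The GC content of the 4 parts was 61.1%, 58.1%, 55% and 62.2%. The part of base composition in these ratios was not tested. H19 is expressed from the maternal allele, so its CxB reads would carry CastEi/J bases, which can differ from the reference genome. Whether such reads aligned less often in some parts of H19 was not tested either. Reads from the paternal Igf2 allele would instead carry CastEi/J bases in BxC, and how they aligned was not tested.

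**Figure D2:**
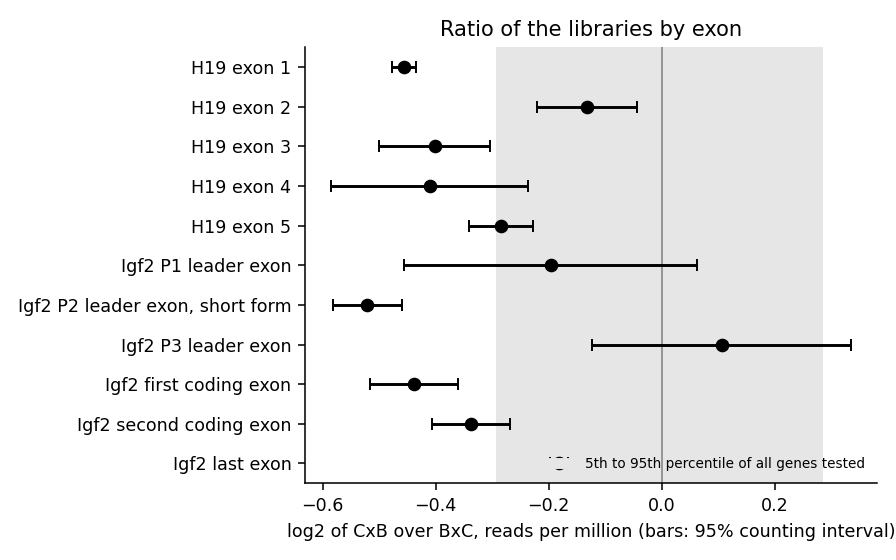
Log2 ratio of CxB over BxC RPM for each exon of H19 and Igf2 with 95% counting intervals; the grey band spans the 5th to the 95th percentile of all genes tested. Ratios run from -0.52 in the short P2 leader exon of Igf2 to 0.11 in the P3 leader exon.

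Reads on H19 were piled up at a few positions near its 5′ end. The 10 most frequent positions held 23.57% of the H19 reads in BxC and 21.54% in CxB, and 8 of the 10 most frequent positions within exon 1 were shared between the libraries. The most frequent in BxC, bases 193 to 228 of exon 1, carried 3511 reads there and 1797 in CxB. Without the 10 most frequent positions of each library the H19 ratio was -0.39. The reads lay at 3015 distinct positions in BxC and 2492 in CxB. Exons of 2372 bases allow a limited number of positions on each strand, so the count of positions is capped. How far the cap acts here was not tested, and by distinct positions the H19 ratio was -0.0543. The catalog entry of H19 ends inside exon 1 and leaves out its 5′ part; its exons held 14152 and 10380 reads, a ratio of -0.21 (-0.25 to -0.18).

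**Figure D3:**
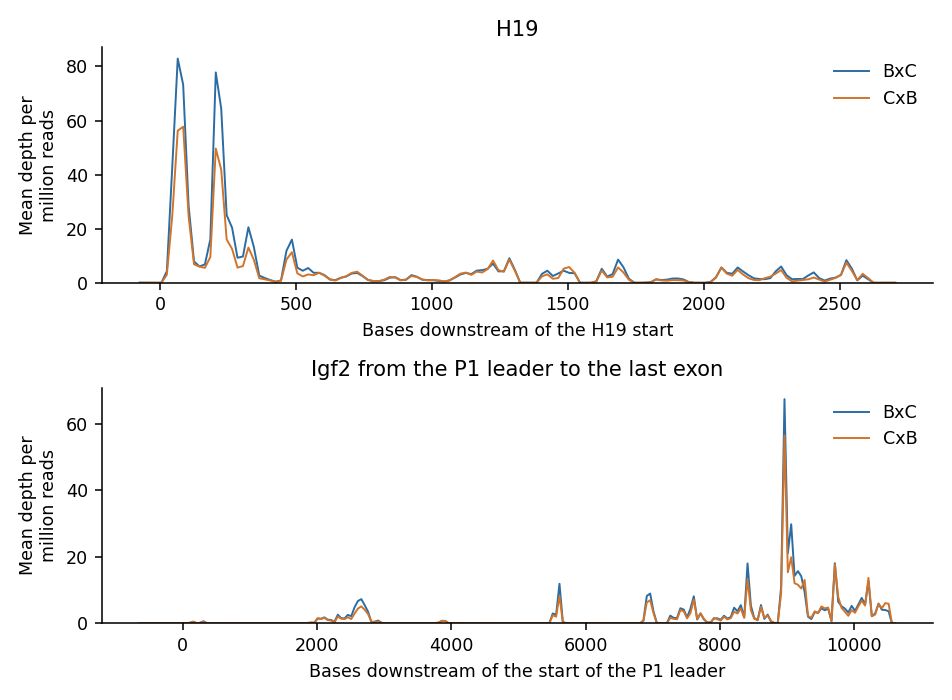
Mean read depth, scaled to library size as in RPM, along H19, in bins of 20 bases from the H19 start, and along Igf2, in bins of 50 bases from the start of the P1 leader. In H19 the depth is highest within the first 329 bases, where BxC exceeds CxB, and in Igf2 the highest peak lies in the last exon.

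H19 RNA was almost wholly spliced. Its 4 junctions had 1020 spliced reads in BxC and 768 in CxB. Set against the unspliced reads that crossed an exon edge with at least 5 bases on each side, averaged over both edges of each intron, this was a spliced share of 99.85% (99.29 to 99.98) and 99.68% (99.06 to 99.97). Each intron was touched by 31 to 53 reads in BxC and 13 to 42 in CxB when an overlap of any length was counted. The exon 2 to 3 junction had 674 reads in BxC and 521 in CxB, far more than the 149 and 115 of exon 1 to 2, the 114 and 87 of exon 3 to 4, or the 83 and 45 of exon 4 to 5. A single line held 163 and 149 of the exon 2 to 3 reads. By distinct positions that junction did not stand out, with 43 and 31. Exon 1 to 2 had 43 and 34 positions, exon 3 to 4 had 43 and 29, and exon 4 to 5 had 32 and 20. The log2 ratio over the 4 junctions together, most of whose reads were at exon 2 to 3, was -0.18 (-0.31 to -0.04). At the exon 4 to 5 junction alone it was -0.65 (-1.21 to -0.11).

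H19 exon 1 also contains the hairpin of Mir675, the microRNA that H19 gives rise to, and an intron of Igf2 contains that of Mir483. Their mature forms from RefSeq are printed with the seed, bases 2 to 8, in capitals, because they lie inside the hairpins, which were counted whole. The hairpin of Mir675 was covered by 495 reads in BxC and 436 in CxB, a log2 ratio of 0.05 (-0.14 to 0.24). The hairpin of Mir483 was covered by 4 reads in BxC and 0 in CxB, which allows up to 3.
miR-675-5p: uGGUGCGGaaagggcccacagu
miR-675-3p: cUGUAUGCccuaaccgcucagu
miR-483-5p: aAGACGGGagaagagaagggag
miR-483-3p: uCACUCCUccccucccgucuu
The 4 seeds differ from each other, and in the RefSeq table each is held by 1 mature entry. Libraries of polyadenylated RNA read in 36-base stretches measure host transcripts here and not mature microRNAs.

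Igf2 was read mostly from its last exon, which codes for the end of the precursor and carries the long 3′ UTR. The last exon held 72968 reads in BxC and 54737 in CxB, a log2 ratio of -0.18 (-0.20 to -0.17). Divided into 5 parts of 657 bases, its middle part alone held 33011 reads in BxC and 22144 in CxB, 45.97% and 41.07% of the unspliced reads centred in the exon. The first coding exon had 3452 and 2168 reads, a ratio of -0.44 (-0.52 to -0.36), and the second coding exon 4208 and 2835, a ratio of -0.34. The 2 junctions between the coding exons and into the last exon had 1273 spliced reads in BxC and 906 in CxB together, a ratio of -0.26 (-0.38 to -0.13). Of these, 1158 and 815 were at the junction into the last exon, where a single line held 506 and 293. By distinct positions it had 38 and 21, beside 40 and 38 between the coding exons. At the junction into the last exon the spliced share was 99.78% and 99.88%.

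Of the Igf2 promoters, P2 and P3 accounted for most leader junctions. Each leader is joined to the same first coding exon, so a spliced read over that junction names the leader. The donors of the leaders that were seen and the acceptor they share are printed with 10 exon bases and 20 intron bases and with the intron's outermost bases in capitals, because the promoter count rests on reads that cross them.
P1 donor: cggccttgtgGTgagctccccgtggcgcgc
P2 donor: cggcttccagGTaagggctctcaggggccc
P3 donor: ccaacttcagGTaaccagggctgtggagcc
Shared acceptor: gcctgcgtttctttctccAGgtaccaatgg
P2 had 214 spliced reads in BxC and 127 in CxB. P3 had 108 and 113, and P1 had 11 and 5. P0 and the leader of transcript Igf2-005 had 0 spliced reads in both libraries. Spliced reads could align only at junctions of the authors' gene models, and whether those held these junctions was not checked. Only if they did does a count of 0 allow up to 3 reads each. Over the P0 leader exon itself there were 0 reads in BxC and 3 in CxB.

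As a share of leader junction reads, P2 made up 64.26% (58.86 to 69.41) of 333 reads in BxC and 51.84% (45.39 to 58.24) of 245 in CxB. P3 made up 32.43% (27.43 to 37.75) and 46.12% (39.76 to 52.58), and P1 3.303% and 2.041%. The intervals of the P2 share did not overlap between the libraries, and neither did those of the P3 share. They did overlap when at least 8 bases were required on each side of the junction, with P2 at 60.57% (54.57 to 66.35) and 50.67% (43.92 to 57.41) and P3 at 35.84% (30.21 to 41.78) and 47.09% (40.39 to 53.86). The order of P2 and P3 depended on how repeated reads were counted. Without the most frequent line of each junction, P2 stayed first in both libraries, and the intervals of its share did not overlap. With each line counted once, P3 came first in both libraries, with 35 lines against 29 for P2 in BxC and 28 against 17 in CxB, and the intervals overlapped between the libraries. Counted as distinct positions, P2 had 26 in BxC and 17 in CxB and P3 had 29 and 26, so P3 again came first, with overlapping intervals. P1 had 8 and 2 positions, 12.7% and 4.444% of all. A junction allows at most 54 read positions over both strands, which caps the size of a difference by positions.

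**Figure D4:**
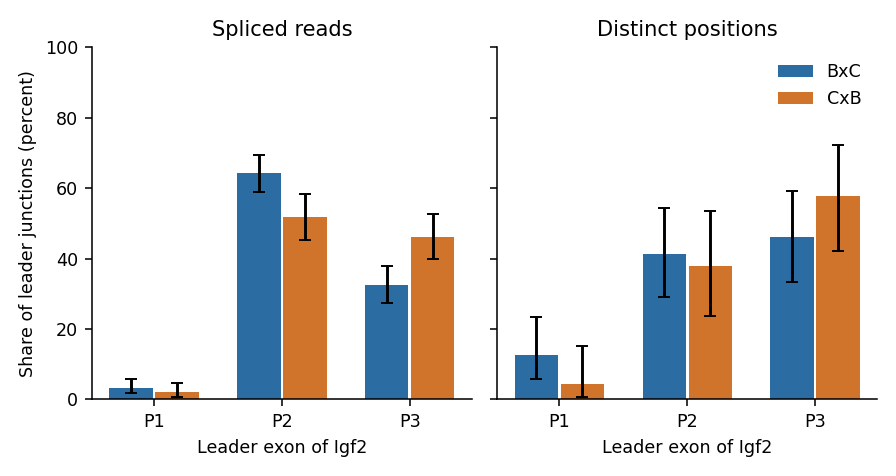
Share of leader junctions of Igf2 that start in the P1, P2 and P3 leader exons, by spliced reads on the left and by distinct positions on the right, with exact 95% Clopper-Pearson intervals. P2 leads by reads in both libraries (64.26% and 51.84%) and P3 leads by positions (46.03% and 57.78%).

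By reads, the bodies of the leader exons put P2 above P3 per length. The short form of the P2 leader had 5801 reads in BxC and 3440 in CxB, or 102.0 and 71.09 RPKM, a log2 ratio of -0.52 (-0.58 to -0.46), at 482 and 400 distinct positions. The P3 leader had 333 and 305 reads, or 23.69 and 25.5 RPKM, a ratio of 0.11 (-0.12 to 0.33), at 100 and 86 distinct positions. The short P2 form has 441 bases and the P3 leader 109, so by positions the gap per length was much smaller than by reads. By reads the P2 leader was lower in CxB in its body and at its junction, where the ratio was -0.52 (-0.85 to -0.20). Both P3 intervals included 0. The P2 junction reads lay on only 29 lines in BxC and 17 in CxB, so the interval of its ratio, which takes reads as independent, can be too narrow. The long form of the P2 leader, which holds the short form and reaches further 5′, had 8611 and 5531 reads, a ratio of -0.41 (-0.45 to -0.36). The P1 leader had 292 and 217 reads, but 98 of its bases overlap an exon of Igf2as on the other strand, and the 160 and 100 reads there cannot be assigned to one of them. Outside that overlap the P1 leader had 149 and 126 reads.

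The starts of these promoters differ in base composition. The 250 bases before the RefSeq starts of P2 and P3, at chr7:149844710-149844959 and chr7:149843402-149843651 on the minus strand, are printed because these promoters gave most leader reads. The P2 stretch lies before the short form of the leader and inside the annotated long form, so it is itself covered by an exon. Capitals mark GC-box letters on either strand.
P2 promoter: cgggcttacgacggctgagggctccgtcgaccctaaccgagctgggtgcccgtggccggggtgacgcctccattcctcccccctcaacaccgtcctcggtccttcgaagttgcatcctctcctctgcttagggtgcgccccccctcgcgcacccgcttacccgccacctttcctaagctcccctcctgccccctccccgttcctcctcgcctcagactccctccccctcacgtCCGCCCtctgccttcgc
P3 promoter: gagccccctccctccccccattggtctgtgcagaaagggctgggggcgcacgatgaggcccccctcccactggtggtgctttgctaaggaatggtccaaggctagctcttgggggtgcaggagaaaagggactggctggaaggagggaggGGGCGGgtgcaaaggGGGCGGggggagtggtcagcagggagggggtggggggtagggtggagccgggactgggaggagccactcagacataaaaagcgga
In the 250 bases before the RefSeq start, matched to mm9 by exact search, GC content was 66% for P3, 68.8% for P2, 47.6% for P1 and 50.8% for P0, against a median of 52.4% over 32851 promoters. P2 held 22 CG pairs, P3 6, P1 10 and P0 1, against a median of 6. The GC-box letters GGGCGG, searched on both strands, occurred 2 times before P3, 1 time before P2 and not before P1 or P0; 32.7% of all promoters held them. The TATA-box letters TATAAA occurred before none of the 4, and before 12.4% of all promoters.

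Ins2 was at the edge of detection in these brains. The BxC library had 6 reads at 6 positions over its exons. The CxB library had 26 reads at 18 positions, of which 2 positions held 5 reads each. The log2 ratio was 2.35 with an interval of 1.04 to 3.92, a 5.093-fold higher value in CxB. Genes this low scatter widely between the libraries: of 2056 genes with 20 to 50 reads over both libraries together, 26.1% were at least 1.5-fold higher in CxB and 1.61% had a ratio at least as high as that of Ins2. The only spliced Ins2 read, over the exon 2 to 3 junction, was in CxB, against 0 in BxC. By exon, Ins2 exon 1 had 0 reads in BxC and 5 in CxB, all 5 on 1 line, exon 2 had 4 and 9 and exon 3 had 1 and 12. The upstream leader exon of transcript Ins2-006 had 0 and 1 reads and no junction read. Whether the authors' gene models held its junction was not checked. Of the other genes in a list of pancreatic islet genes, Ins1 had 0 reads in both libraries, Pdx1 4 and 6, Iapp 2 and 4, and Slc2a2 3 and 7. G6pc2 had 11 and 1, Gcg 36 and 24, and Sst, which islet delta cells and neurons make, 6601 and 5006.

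The remaining annotated genes of the region were far below H19 and Igf2. Igf2as, the antisense RNA over the upstream Igf2 leaders, had 564 reads in BxC and 405 in CxB, a log2 ratio of -0.24 (-0.43 to -0.06), with the reads it shares with the P1 leader included. Outside Igf2 exons it had 411 and 315 reads, a ratio of -0.15 (-0.37 to 0.06). Its exon 1 to 2 junction had 7 spliced reads in each library, and its exon 2 to 3 and exon 3 to 4 junctions each had 4 in BxC and 0 in CxB. Mrpl23, a mitochondrial ribosomal protein gene on the far side of H19, had 1275 and 1245 reads, a ratio of 0.20 (0.08 to 0.31). Nctc1, a muscle-expressed noncoding RNA between them, had 20 and 6 reads. Tnnt3, fast skeletal troponin T, had 134 and 159, Gm14492, which overlaps it, had 62 and 74, and Gm7290 on the Ins2 side had 137 and 176.

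The strand of the reads carried little information on the strand of transcription. For H19, 43.3% of BxC reads and 43.53% of CxB reads lay on its own strand, and for Igf2 39.26% and 38.56%, beside medians of 43.98% and 43.29% over the 15427 genes. The share changed strongly from exon to exon. The plus-strand share was 10.95% and 13.42% in the first coding exon of Igf2, and 90.33% and 88.96% in the second, although both belong to one minus-strand transcript. In H19 exon 4 it was 45.32% and 57.75%. The strand of each gene was therefore taken from the annotation. The reference bases at the annotated junctions of H19, Igf2 and Ins2 had the minus-strand motif, and those of Igf2as had the plus-strand motif. That motif is fixed by the annotated position, so it is no separate evidence on the strand of transcription.

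Most genes that act on IGF2 and insulin were detected. Of 25 genes in a list of ligands, receptors, binding proteins and adaptors, 20 had at least 100 reads in each library, 0 of them differed by 1.5-fold, beside 0.473% higher and 0.622% lower of all genes tested, so that a count of 0 says nothing particular to the list. Their median log2 ratio was -0.05, and -0.001 over all genes tested. Among ligands, Igf1 had 1702 and 1123 reads, 1.33 and 1.032 RPKM, with a ratio of -0.37 (-0.48 to -0.26), so Igf2 exceeded it in level in both libraries. Among receptors, Igf1r, which transmits the growth signal of both IGFs, stood at 25.01 and 22.44 RPKM. Insr, the insulin receptor, stood at 7.937 and 7.619, and Igf2r, which takes up IGF2 for degradation, at 5.496 and 5.611.

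Of the IGF-binding proteins, which hold IGFs outside cells, Igfbp2, Igfbp4 and Igfbp5 were the most abundant. Igfbp2 stood at 58.01 and 56.37 RPKM. Igfbp5 stood at 50.36 and 44.85. Igfbp4 stood at 53.78 and 43.12, with the lowest ratio of the tested binding proteins at -0.32 (-0.35 to -0.28). Igfbp1 was near absence with 9 reads in each library. The Igf2 mRNA-binding proteins, which carry and stabilise Igf2 mRNA among others, stood at 2.521 and 2.656 RPKM for Igf2bp1, 2.942 and 2.676 for Igf2bp2, and 3.635 and 3.013 for Igf2bp3, whose ratio was -0.27 (-0.37 to -0.17). Lin28b had 1427 and 1213 reads, and Lin28a 35 and 21.

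Regulators of the H19-Igf2 imprint were detected in both libraries. Of 9 listed, 8 were tested, with a median log2 ratio of -0.04 and 0 past 1.5-fold, where the shares of all genes were 0.473% and 0.622%. Ctcf stood at 24.03 and 23.27 RPKM, Dnmt1, the maintenance DNA methyltransferase, at 39.73 and 38.67, and Zfp57, a zinc finger protein that protects imprints, at 32.84 and 32.87. The lowest ratios of the list were those of Uhrf1, which guides Dnmt1 to replicated DNA, at -0.30 (-0.41 to -0.19), and Mbd1, a methyl-DNA-binding protein, at -0.15 (-0.20 to -0.10). Ctcfl, a germline relative of Ctcf, had 111 and 88 reads. In a list of 15 coexpressed imprinted genes that includes H19 and Igf2, the median ratio was -0.05, and only Ndn, at -0.51, was lower than H19.

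In whole brain, fewer cells of a type and less RNA per cell cannot be told apart. Igf2 is known to be made in the choroid plexus, the meninges and vessels, so marker lists of these tissues are given beside its ratio. All 16 markers of meninges and fibroblasts were tested, 15 of them had a ratio below 0, as did 50.4% of all genes tested, and the summed level was 753.1 RPM in BxC and 652.6 in CxB, with a median log2 ratio of -0.15. The median was -0.11 for 9 markers of pericytes and mural cells and -0.07 for 9 of endothelium. All 15 choroid plexus markers were tested, with 412.0 and 451.8 RPM in sum and a median of 0.10. The 6 tested erythroid markers were all lower in CxB, with a median of -0.34, while the medians of neurons and radial glia stood at 0.05 and 0.03. By summed level the log2 ratio was -0.05 for neurons and 0.04 for radial glia. It was -0.19 for endothelium, -0.15 for pericytes and mural cells and -0.32 for erythroid cells. Skeletal muscle, which expresses H19 and Igf2 strongly, had 11.04 and 11.06 RPM over its 11 markers. The median over its 5 tested markers was 0.28 by reads and -0.07 with each line counted once, and they ran from -0.62 for Actn3 to 0.62 for Ckm. The part of these tissues in the H19 and Igf2 ratios was not tested.

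**Figure D5:**
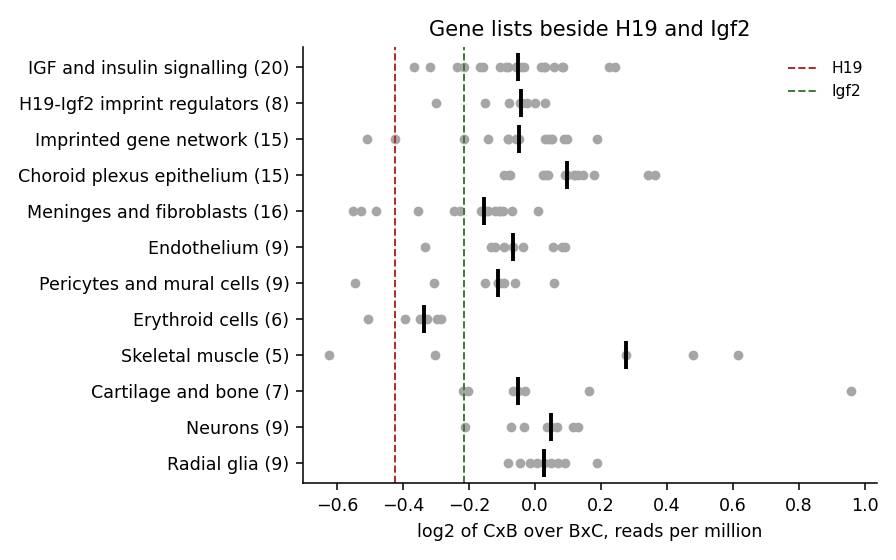
Log2 ratio of CxB over BxC for each tested gene (grey points) of each list with at least 5 tested genes, with the median as a black bar and the number tested in brackets; dashed lines mark H19 (-0.42) and Igf2 (-0.22). The medians of the meningeal (-0.15) and erythroid (-0.34) lists lie below 0 and that of the choroid plexus list (0.10) above it.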

How the data were processed

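The authors aligned single-end reads of 36 bases with Novoalign (version not given in the sources used here) to gene models, splice junctions and the genome, and deposited unique alignments in mm9 coordinates. The deposited lines hold a whole-number count, taken from the values to be the number of identical reads. Several lines can share a position and strand (in H19, 1.91 lines per position in BxC), and what separates them is not given in the sources used here, so counting lines once is not counting positions once. No normalization had been applied. The paper masked known strain differences before the alignment for its test of allelic concordance, to reduce bias against CastEi/J reads. It does not state such masking for the alignment to gene models, splice junctions and the genome. The part of such alignment bias in the ratios of genes, exons and leaders was not tested. The study describes dUTP strand-specific libraries, the labels a kit protocol, and the deposited strands were mixed. Spliced reads exist only at junctions of the authors' gene models. The deposited catalog gave positions; 0 columns could not be assigned.

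Reads with an aligned block over the GENCODE vM1 exons of a gene were counted for it, on either strand, and scaled to the library total. Unspliced reads needed at least 5 bases on each side of an exon edge. Intervals are exact at 95% (Poisson, Clopper-Pearson, conditional binomial) and cover counting error only; a count of 0 allows 3 reads (0.02327 RPM in BxC, 0.02734 in CxB). Genes named are the 3 members, annotated genes of and next to the region, ligands, receptors, binding proteins and imprint lists, and the 3 genes nearest each member in level; other examples were chosen after their values were seen, as were the 4 parts of H19 exon 1 and the 5 parts of the last Igf2 exon. The members and lists were chosen with earlier results of these data known. Python 3 with numpy, pandas, scipy and bedtools was used. The intervals of the ratios were tested on simulated Poisson counts, which hold no piled-up reads, so that test cannot show how the intervals behave where reads pile up. The counting was compared with a direct count on the real alignments.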

Additional observations from a re-analysis of the deposited data

Results flagged for a closer look

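Outside the annotated genes, every stretch examined around H19 and Igf2 held more than the 3 reads that a count of 0 allows in at least 1 library. From the H19 start upstream, there were 27 reads in BxC and 9 in CxB from 0 to 1 kb, 194 and 93 from 1 to 2 kb, and 7 and 0 from 2 to 4 kb. There were 48 and 76 reads from 4 to 35 kb, 328 and 229 from 35 to 43 kb, and 14 and 20 from 43 to 70 kb. Between Nctc1 and H19 there were 24 and 18 reads, and between Igf2as and Ins2 4 and 11. Per length, the stretch from 1 to 2 kb upstream was the densest of these, with 1.505 RPKM in BxC and 0.8476 in CxB and a log2 ratio of -0.83, followed by that from 35 to 43 kb, with 0.318 and 0.2609. In the latter the plus-strand share was 27.74% and 33.62%.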

How the results depend on the processing

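With 1 library per cross, no replicate could be left out, and no value here carries replicate error. No paired analysis was possible because each cross had 1 library and no result came from a test. Depth limits Ins2, Mir483, the P0 leader exon of Igf2 and the junction of its P1 leader, which had few or no reads. For the junctions of P0 and Igf2-005, the authors' gene models may limit as well. With each line counted once, the log2 ratio was -0.14 for Igf2 and -0.28 for H19. With distinct positions, an alternative chosen after seeing the data, it was 0.0043 and -0.0543, so little or no difference was left. Positions are limited by exon length, and how far this limit acts on these 2 values was not tested. With reads on the gene's own strand the Igf2 ratio was -0.24. For H19, the catalog entry gave -0.21 by its whole span and -0.21 by its exons, and leaving out the 10 most frequent positions gave -0.39. The Ins2 ratio stayed within its interval under every alternative run. Genes at least 1.5-fold higher in CxB, 73 in the values above, numbered 2308 with at least 1 read in each library, 5 with at least 1000 reads, 5 with each line counted once and 34 with own-strand reads. Those lower in CxB, 96 above, numbered 2341, 11, 21 and 61. The P2 share of Igf2 leader junctions was 40.28% in BxC and 36.17% in CxB with each line counted once, and 41.27% and 37.78% by distinct positions. P1 was at 11.11% and 4.255% by lines. Without the most frequent line of each junction, P2 was at 70.25% (64.06 to 75.93) in BxC and 51.91% (44.42 to 59.34) in CxB. The spliced share of H19 was 99.27% and 98.6% by lines and 99.08% and 98.28% by positions. The share on the own strand was 52.18% and 51.38% for Igf2 and 52.1% and 51.37% for H19 by lines, and 53.17% and 51.67%, then 53.17% and 51.36%, by positions. By lines, the median ratio of the erythroid list was -0.23, and that of the pituitary list, with 3 genes tested, was -0.0273 against 0.05 by reads. Sst, the 1 tested gene of the islet list, had -0.13 by lines against -0.1661 by reads. Scaling by the median ratio over genes left it nearly the same, at -0.165. Scaling by the median ratio or without chromosome X and the mitochondrial chromosome left the 3 members' ratios within their intervals. The cause of these shifts was not tested.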
